A study of Danio rerio with 3 samples.

Results

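Cluster 2 of the finer deposited clustering was a group of 98 endothelial-like cells from adult zebrafish hearts, of 754 cells in all. It was chosen by its cluster number in the deposited cell table, and 86 of its cells came from uninjured hearts (day 0), 3 from hearts at day 3 and 9 from hearts at day 7 after injury. The marker genes taken for it were flt1, epas1b, cyp1b1, ecscr and appa. The cluster was compared with the 656 other cells and, within day 0, with the 72 cells of cluster 0, the larger endothelial-like group of the series. Each day had 1 droplet library (10x Chromium) of hearts from AB strain fish aged 5 to 12 months, 3 males and 3 females, whose 6 hearts were digested in 2 sets of 3 and then pooled. Day 0 hearts were taken before any drug. The injured fish had been kept in 5 mM metronidazole with 0.1% DMSO for 48 hours, which kills cells carrying a bacterial nitroreductase. The labels describe a line in which the vmhc promoter drives that enzyme in ventricular cardiomyocytes, and do not state which line each library came from. Injury and drug cannot be told apart, and pooled hearts leave no value per animal.

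Endothelial cells line the heart's chambers (endocardium) and its vessels. They sense vascular endothelial growth factor through receptors of which flt1 encodes one that binds the ligand tightly and signals weakly. epas1b encodes HIF-2 alpha, a transcription factor that is destroyed in the presence of oxygen after it is recognised by the product of vhl, and endothelial cells are known for high HIF-2 alpha in many vertebrate tissues. cyp1b1 encodes a cytochrome P450 that oxidises steroids and retinoids, ecscr a surface protein of endothelial cells, and appa one of the zebrafish amyloid precursor proteins.

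The 86 day 0 cells of cluster 2 held 282600 UMIs (unique molecular identifiers, counted molecules), with 2005 to 6779 UMIs per cell and a median of 2805. The 72 day 0 cells of cluster 0 held 195062 UMIs, with a median of 2323 per cell. Cluster 2 cells also showed more genes per cell, with a median of 678 against 559.5, and of 539.5 against 504 once every cell was thinned to 2000 UMIs. Mitochondrially encoded genes took a median of 2.13% of UMIs in cluster 2 and 2.00% in cluster 0. Cardiomyocyte genes took a median of 5.06% of UMIs in cluster 2 (0.550 to 13.3% per cell) and 3.67% in cluster 0 (0.468 to 18.6%), and 45 of 86 cluster 2 cells against 24 of 72 cluster 0 cells were above 5%. These levels moved with the comparison below, and their part in it was not tested. 1 cell of cluster 0 had 2703 of its 3378 UMIs from globin genes. The deposited coarser clustering put all 98 cells into 1 group together with the 281 cells of cluster 0, the 88 of cluster 3 and 3 cells of cluster 5. No barcode of cluster 2 occurred in another library.

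A level is the sum of a gene's UMIs over the cells of a cluster in 1 library, scaled to 1000000 (CPM) and given with an exact 95% Poisson interval. A fold is the ratio of such levels, with its exact 95% interval, and a log2 ratio has a pseudocount of 10 CPM. With a single library for each day the spread between fish is not known, and the intervals hold counting error alone. They treat each UMI as an independent draw and leave out the spread between cells as well. For a gene with many UMIs in 1 cell the interval is therefore too narrow. The clusters had been drawn from the expression of all genes, so every difference between them is a description and carries no test.

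The marker levels fitted an endothelial group. At day 0, pan-endothelial genes summed to 7788 CPM in cluster 2 and 8659 in cluster 0, against 475 in the mural-like cells of cluster 1. The adhesion gene cdh5, which encodes VE-cadherin, stood at 357 CPM in cluster 2, 246 in cluster 0 and 13.3 in cluster 1. kdrl, a zebrafish VEGF receptor gene, stood at 287, 190 and 39.9 CPM. The fatty acid binding gene fabp11a alone made 23103 CPM in cluster 2 and 21788 in cluster 0, so both groups shared their most abundant endothelial transcript. Marker lists of other cell types ranged from absent to abundant in cluster 2. Mural genes summed to 966 CPM, against 19577 in cluster 1, and neural genes had 0 UMIs. The macrophage gene mpeg1.1, the epicardial gene tcf21 and the lymphatic genes flt4, lyve1b and prox1a each had 0 UMIs in the 86 cells, which allows up to 10.6 CPM each. Other members of their lists were present. The macrophage or monocyte list summed to 548 CPM in cluster 2, 415 in cluster 0 and 136 in cluster 1, with cd74a at 308 CPM in cluster 2. The venous and lymphatic list summed to 531 CPM in cluster 2, 1517 in cluster 0 and 106 in cluster 1. Of these sums vwf made 248 CPM in cluster 2 and 1282 in cluster 0, where 107 of its 250 UMIs lay in 1 cell. The epicardial list summed to 16621 CPM in cluster 2, 20045 in cluster 0 and 22615 in cluster 1, of which s100a10b made 10276, 11099 and 16712. The neutrophil list summed to 1975 CPM in cluster 2, 1969 in cluster 0 and 146 in cluster 1, nearly all of it srgn, at 1971 CPM in cluster 2. Cardiomyocyte genes stood at 55368 CPM in cluster 2 and 45519 in cluster 0, against 184895 in the cardiomyocyte-like cluster 5. Myoglobin (mb) made most of that sum, at 33510 CPM in cluster 2 and 24531 in cluster 0, and the cardiac myosin light chain gene myl7 stood at 10297 and 10484.

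Cluster 2 was a large share of the cells captured from uninjured hearts and a small share of those captured after injury. How the captured cells relate to the make-up of the heart was not tested. It held 31.6% of day 0 cells (86 of 272, exact 95% binomial interval 26.1 to 37.5), 2.63% of day 3 cells (3 of 114, 0.546 to 7.50) and 2.45% of day 7 cells (9 of 368, 1.12 to 4.59). Among the cells of the endothelial-like clusters 0, 2, 3 and 6 the shares were 51.8% at day 0, 2.65% at day 3 and 4.02% at day 7. Fewer such cells, a change of state that moved them to another cluster and a difference between libraries cannot be told apart. Each day was 1 library. At the coarser resolution the group that takes in clusters 0, 2 and 3 held 61.0%, 69.3% and 61.1% of the 3 libraries.

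**Figure D1:**
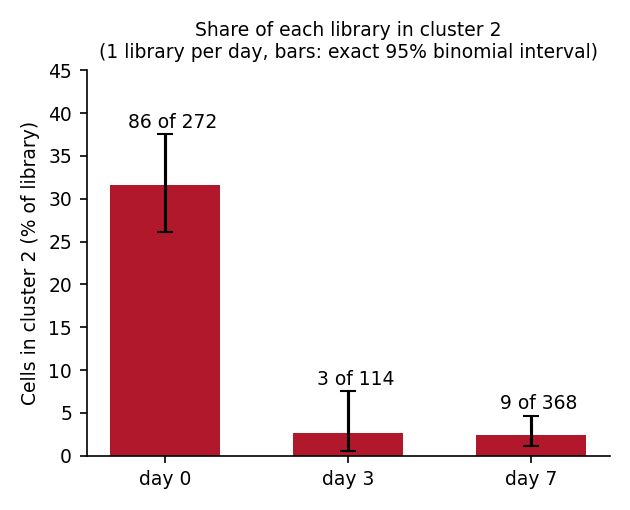
Percent of each library's cells in cluster 2 (y axis) for the 1 library of each day (x axis), with exact 95% binomial intervals. The day 0 bar stands at 31.6% and the day 3 and day 7 bars at 2.63% and 2.45%.

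The 5 marker genes were all higher in cluster 2 than in cluster 0 at day 0, 4 of them by at least 2-fold on the log2 scale with the pseudocount. Over all 1487 genes with at least 20 UMIs in the 2 clusters, 13.2% were that much higher. Since the clusters were drawn from these same cells, nothing is read from the count. flt1 had 46 UMIs in cluster 2 (163 CPM, interval 119 to 217) and 13 in cluster 0 (66.6 CPM, 35.5 to 114), a fold of 2.44 (1.30 to 4.93). It was seen in 30 of 86 cluster 2 cells (34.9%), 10 of 72 cluster 0 cells (13.9%) and 2 of 88 mural-like cells (2.27%), whose median depth was 2950.5 UMIs. Thinned to 2000 UMIs, the shares were 20.9%, 8.33% and 0%, so flt1 stood above the mural-like background in both endothelial groups and highest in cluster 2.

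epas1b was the most abundant of the 5, with 321 UMIs (1136 CPM) in cluster 2 and 56 (287 CPM) in cluster 0, and 9 UMIs (29.9 CPM) in the mural-like cells. A single cluster 2 cell held 161 of the 321 UMIs, and without the richest cell of each cluster the log2 ratio went from 1.95 to 1.06. Its presence was broad all the same, in 64 of 86 cluster 2 cells (74.4%), 34 of 72 cluster 0 cells (47.2%) and 8 of 88 mural-like cells (9.09%). After thinning the shares were 57.0%, 41.7% and 6.82%. The paralog epas1a had the opposite distribution, with 0 UMIs in cluster 2, 1 in cluster 0 and 34 in the mural-like cells.

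cyp1b1 had 42 UMIs in cluster 2 (149 CPM), 12 in cluster 0 (61.5 CPM) and 0 in the mural-like cells, where up to 9.97 CPM is allowed. The cyp1b1 fold between the endothelial groups was 2.42 (1.25 to 5.04). ecscr had 63 UMIs in cluster 2 (223 CPM), 18 in cluster 0 (92.3 CPM) and 2 in the mural-like cells (6.65 CPM), with a fold between the endothelial groups of 2.42 (1.41 to 4.34). cyp1b1 was seen in 23 of 86 cluster 2 cells and 8 of 72 cluster 0 cells, and ecscr in 33 and 12. Both genes were thus at or near 0 in mural-like cells and higher in cluster 2 than in cluster 0. appa was the least specific, at 354 CPM in cluster 2, 179 in cluster 0 and 106 in the mural-like cells. Its fold over cluster 0 was 1.97 (1.33 to 2.99).

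Other cells carried these genes as well. appa reached 509 CPM in cluster 6 at day 3, above its cluster 2 level, and cyp1b1 stood at 71.1 CPM there. Summed, the 5 markers stood at 1205 CPM in the 6 day 0 cells of cluster 3, from 23 UMIs. At day 0 the same sum was 2024 CPM in cluster 2 and 687 in cluster 0. Over all days, flt1 stood at 138 CPM in cluster 2 and 22.0 in all other cells, a fold of 6.29 (4.15 to 9.51), and it was seen in 31.6% and 6.10% of their cells.

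**Figure D2:**
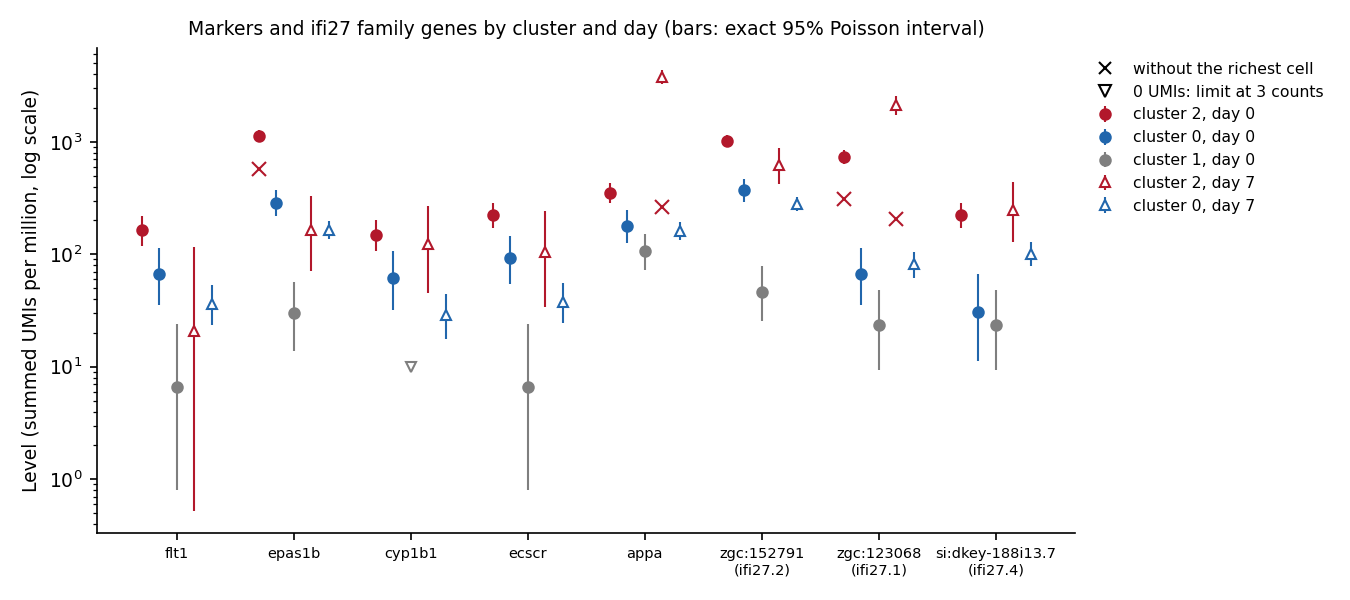
Level in CPM on a log axis (y) of the 5 marker genes and 3 genes of the ifi27 family (x) in clusters 2, 0 and 1 at day 0 and clusters 2 and 0 at day 7, with exact 95% Poisson intervals. Crosses give the level without the richest cell where 1 cell held over 50% of at least 20 UMIs, as for epas1b at day 0 and appa at day 7 in cluster 2, and an open triangle pointing down gives the limit of 3 counts where there were 0 UMIs.

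The markers were spread over the cells of cluster 2 rather than held by a few. At least 1 of the 5 was seen in 81 of 86 day 0 cells and at least 3 in 39 (45.3%), while 0 cells showed all 5. In cluster 0, 51 of 72 cells showed at least 1 and 8 (11.1%) at least 3, and in the mural-like cells 31 of 88 showed at least 1 and 0 at least 3. With every cell thinned to 2000 UMIs, 20 of 86 cluster 2 cells and 1 of 72 cluster 0 cells showed at least 3. The groups overlapped at every count below 4, and 15 cluster 2 cells against 0 cluster 0 cells showed 4 of the genes. Among the 186 other cells of day 0, 10 showed at least 3.

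**Figure D3:**
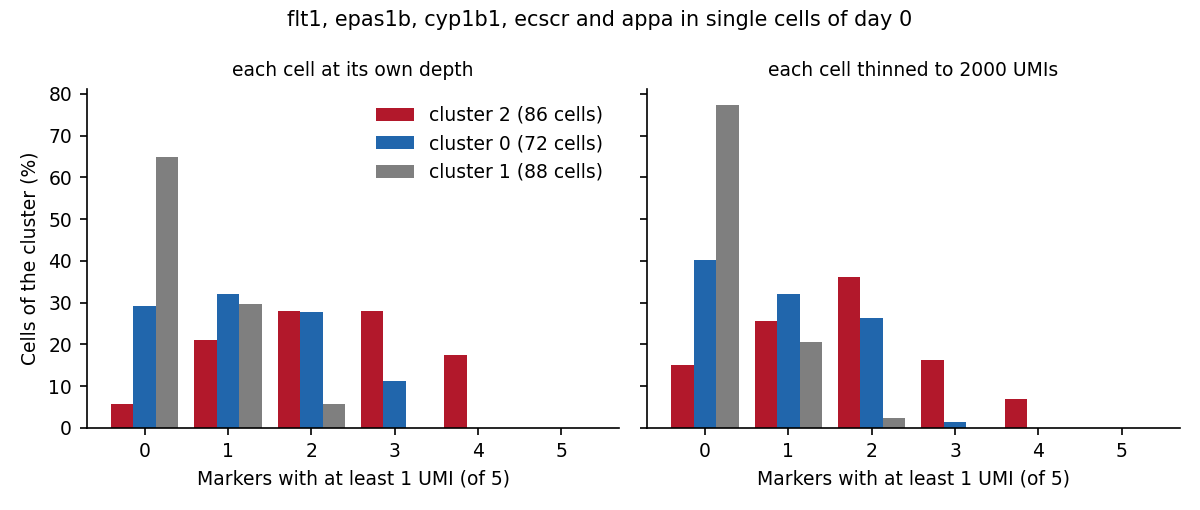
Percent of the day 0 cells of clusters 2, 0 and 1 (y) by the number of the 5 marker genes with at least 1 UMI (x), at each cell's own depth (left) and thinned to 2000 UMIs (right). Cluster 2 peaks at 2 to 3 markers at its own depth, cluster 0 at 1 and the mural-like cluster 1 at 0.

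Within day 0, 196 of 1487 measured genes (13.2%) were at least 2-fold higher in cluster 2 than in cluster 0 and 111 (7.46%) at least 2-fold lower. Over all measured genes, 57.4% were higher in cluster 2 by any amount, and 60.4% without the richest cell of each gene. Many of these differences sat in 1 cell: of the 196 higher genes 77 had over 50% of their UMIs in a single cell of cluster 2, and of the 111 lower genes 61 in a single cell of cluster 0. Without the richest cell of each gene in each cluster, 161 genes (10.8%) were at least 2-fold higher and 44 (2.96%) lower. In the 41 cluster 2 and 48 cluster 0 cells with at most 5% cardiomyocyte UMIs, 114 genes were at least 2-fold higher and 108 lower. The limit of 20 UMIs was applied anew to these cells, so these counts are not out of the 1487 genes and are not compared with those above. List medians from these cells are likewise over the members that passed the limit there, which can differ from those measured in all cells. A pair of log2 ratios for a gene is from all cells and without the richest cells, in that order.

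**Figure D4:**
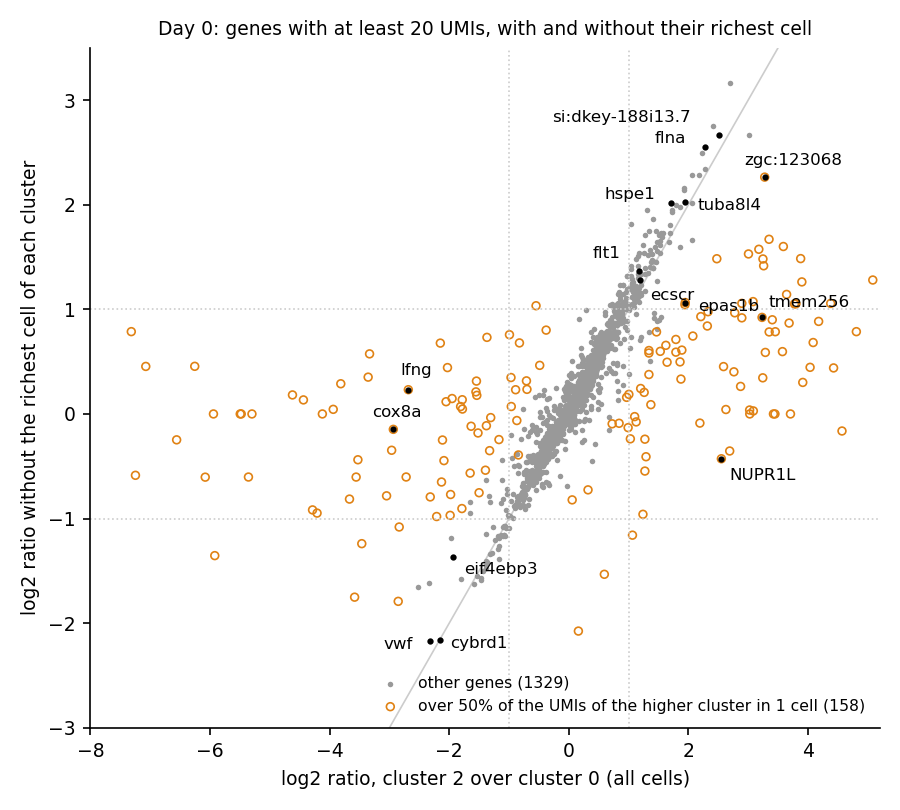
log2 ratio of cluster 2 over cluster 0 at day 0 for the 1487 genes with at least 20 UMIs, from all cells (x) and without the richest cell of each cluster (y), with dotted lines at 2-fold. Genes with over 50% of the higher cluster's UMIs in 1 cell (orange) leave the diagonal, such as NUPR1L (2.55 and -0.43), while flna (2.28 and 2.55) and vwf (-2.33 and -2.17) keep their ratio.

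Genes with high ratios included members of the ifi27 family, small membrane proteins that in mammals are induced by interferon. The family was picked because of those ratios, so no rank against the other lists is read from it. The set was put together after its values were seen, from the RefSeq names of the deposited symbols (zgc:123068 is ifi27.1, zgc:152791 ifi27.2, si:dkey-188i13.6 ifi27.3 and si:dkey-188i13.7 ifi27.4). The family summed to 2314 CPM in cluster 2, 641 in cluster 0 and 253 in the mural-like cells at day 0, a fold between the endothelial groups of 3.61 (2.98 to 4.41). Of 6 measured members 5 were higher in cluster 2, 4 of them by at least 2-fold. Over all measured genes 57.4% were higher and 13.2% at least 2-fold so. The family's median log2 ratio was 1.81, or 1.93 without the richest cells, beside 0.11 and 0.15 over all measured genes. zgc:152791 was the broadest, with 288 UMIs in cluster 2 (1019 CPM, in 64 of 86 cells) and 72 in cluster 0 (369 CPM, in 30 of 72 cells). si:dkey-188i13.7 had 63 UMIs in 35 cells of cluster 2 and 6 UMIs in 5 cells of cluster 0, a fold of 7.25 (3.15 to 20.5). zgc:123068 had 207 UMIs in cluster 2 and 13 in cluster 0, of which 120 lay in 1 cluster 2 cell, and its log2 ratio went from 3.28 to 2.26 without the richest cells. si:dkey-188i13.11 (ifi27.8) was the member that did not follow, with a log2 ratio of -0.13 and its higher level, 123 CPM, in the mural-like cells. How reads shared by similar members were counted is not stated, so values of single members are less certain than the family sum. The other interferon-response genes had a median log2 ratio of 0.15 over 9 measured genes, or 0.46 without the richest cells, and 1 of them was at least 2-fold higher.

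Further genes with high ratios belonged to no list. flna, which encodes the actin crosslinker filamin A, had 53 UMIs in cluster 2 (188 CPM, in 28 of 86 cells) and 6 in cluster 0 (30.8 CPM, in 5 of 72 cells), with log2 ratios of 2.28 and 2.55 with and without the richest cells. It is not a mark of these cells alone, since the mural-like cells held 405 CPM of flna. The alpha-tubulin gene tuba8l4 had 69 UMIs in 39 cells against 11 in 9 cells, and log2 ratios of 1.94 and 2.03. mtss1la, a relative of the membrane-bending gene MTSS1, had 22 UMIs in 19 cells against 3 in 3 cells. akap12b, which anchors protein kinase A, had 112 UMIs in 52 cells against 31 in 24 cells, a fold of 2.49 (1.66 to 3.84). The adenosine receptor gene adora2aa had 32 UMIs in 28 cells against 8 in 8 cells, a fold of 2.76 (1.25 to 6.93). akap12b and adora2aa were named after their values were seen. Over the list of receptors coupled to G proteins and small GTPase genes, 10 of 12 measured members were higher in cluster 2 and 2 at least 2-fold so, with a median log2 ratio of 0.40, or 0.16 in the cells with at most 5% cardiomyocyte UMIs. Over all measured genes, 57.4% were higher and 13.2% at least 2-fold so.

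Genes of oxygen sensing differed in both directions. Of 14 measured hypoxia and HIF genes 9 were higher in cluster 2, beside 57.4% of all measured genes. Of the 14, 6 were at least 2-fold higher, beside 13.2% of all measured genes, and 1 at least 2-fold lower, beside 7.46%. epas1b, a marker taken for this cluster, is 1 of the 6, so nothing is read from the count. The median log2 ratio of the 14 genes, epas1b included, was 0.53, or 0.52 without the richest cells. Their summed level was 3117 CPM in cluster 2 and 1989 in cluster 0, a fold of 1.57 (1.39 to 1.77). Without epas1b, one of the marker genes of the cluster, the fold was 1.16 (1.01 to 1.34). High counts of other members in 1 cell, as given for pgk1 below, remain in that sum. vhl had 39 UMIs in 24 cells of cluster 2 and 9 in 7 cells of cluster 0, with log2 ratios of 1.40 and 1.48. p4ha1b, a prolyl hydroxylase of collagen that is a known HIF target in mammals, had 25 UMIs in 18 cells against 5 in 4 cells, with log2 ratios of 1.47 and 1.75. The glycolytic gene pgk1 had 89 UMIs against 20, of which 48 lay in 1 cell, and its log2 ratio went from 1.53 to 0.60. aldoaa went the other way, at 612 CPM in cluster 2 and 841 in cluster 0. In the cells with at most 5% cardiomyocyte UMIs the list's median log2 ratio was 0.88.

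epo, which encodes the hormone erythropoietin, was seen in 53 of 86 cluster 2 cells (61.6%), 26 of 72 cluster 0 cells (36.1%) and, after thinning to 2000 UMIs, in 51.2% and 29.2%. Its level was 382 CPM in cluster 2 (313 to 461), 251 in cluster 0 (186 to 332) and 13.3 in the mural-like cells, a fold between the endothelial groups of 1.52 (1.08 to 2.18). In the cardiomyocyte-like cluster 5 epo stood at 3530 CPM, where 163 of 167 UMIs lay in 1 cell. Glycolysis genes were higher in 11 of 15 measured members, beside 57.4% of all measured genes. Of them 5 were at least 2-fold higher, beside 13.2%, and none at least 2-fold lower, beside 7.46%. The median log2 ratio of the glycolysis list was 0.37. In the cells with at most 5% cardiomyocyte UMIs the median was -0.14, over the members that passed the UMI limit there. The 2 medians may thus rest on different genes. Among the glycolysis genes ldhba, for lactate dehydrogenase B, held in both settings, with 40 UMIs in cluster 2 and 7 in cluster 0 and log2 ratios of 1.72 from all cells and 2.07 from the cells with few cardiomyocyte UMIs.

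Endothelial signalling genes differed in parts. Of 8 measured Notch pathway genes 6 were higher in cluster 2, 3 of them by at least 2-fold, with a median log2 ratio of 0.54. Over all measured genes 57.4% were higher and 13.2% at least 2-fold so, with a median of 0.11. nrarpa, a feedback regulator that Notch induces, had 26 UMIs in 22 cells against 5 in 5 cells, with log2 ratios of 1.52 and 1.65. The Notch target gene hey2 had 41 UMIs against 10, of which 19 lay in 1 cell, and log2 ratios of 1.34 and 0.78. her6, a hes-type gene, stood at 598 CPM in cluster 2 and 405 in cluster 0. lfng, a glycosyltransferase that modifies Notch, looked lower at a log2 ratio of -2.68, but 105 of its 117 cluster 0 UMIs lay in 1 cell and without it the ratio was 0.23. The summed level of the Notch list was 1341 CPM in cluster 2, 1456 in cluster 0 and 3806 in the mural-like cells. The cluster 0 sum of 284 UMIs includes the 105 lfng UMIs of that 1 cell, so no lower Notch level in cluster 2 is read from it.

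Of 18 measured pan-endothelial genes 13 were higher in cluster 2, beside 57.4% of all measured genes. Their median log2 ratio was 0.46, or 0.24 without the richest cells, beside 0.11 and 0.15 over all measured genes. The SH2 adaptor gene she had 34 UMIs in 28 cells against 8 in 6 cells, with log2 ratios of 1.35 and 1.56. cdh5 and kdrl were higher by 1.45-fold (1.02 to 2.09) and 1.51-fold (1.01 to 2.29). The water channel gene aqp8a.1 stood at 4243 CPM in cluster 2 and 4988 in cluster 0, and vwf at 248 and 1282. The summed endothelial level was 0.899-fold (0.844 to 0.959) that of cluster 0, and 1.02-fold (0.956 to 1.09) without vwf. Of the endocardial list spock3 stood at 4653 and 5419 CPM, and the retinoic acid synthesis gene aldh1a2 at 294 and 154 CPM, a fold of 1.91 (1.24 to 3.00). The endocardial list had a median log2 ratio of 0.11 over 7 measured genes and the coronary and capillary list one of 0.08 over 7, beside 0.11 for all measured genes.

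Of the aryl hydrocarbon receptor genes, whose pathway induces cyp1b1, 4 were measured, cyp1b1 itself among them. The folds of hsp90ab1, 1.08 (0.921 to 1.26), and aip, 1.46 (0.628 to 3.66), had intervals that include 1. The receptor gene ahr2 had 69 UMIs against 8, but 51 lay in 1 cell and the log2 ratio went from 2.32 to 0.84. In the amyloid precursor list the 3 measured genes beside appa had intervals that include 1, and appb, the paralog of appa, stood at 88.5 CPM against 71.8, a fold of 1.23 (0.617 to 2.57). The heat shock and chaperone list had 11 of its 19 measured members higher in cluster 2, beside 57.4% of all measured genes. Its median log2 ratio was 0.14, beside 0.11 for all genes, or -0.06 in the cells with at most 5% cardiomyocyte UMIs. Of this list hspe1, for the mitochondrial co-chaperonin, had 35 UMIs in 26 cells against 6 in 5 cells, with log2 ratios of 1.72 and 2.01. The heat shock gene hsp70l stood at 1493 CPM in cluster 2 and 615 in cluster 0, a fold of 2.43 (1.98 to 3.00), though it was higher still in the mural-like cells, at 3081 CPM. Near-identical hsp70 copies may share its reads. hsp70.2 and hsp70.3 differed less, with log2 ratios of 0.48 and 0.29 beside 1.27 for hsp70l. In the cells with at most 5% cardiomyocyte UMIs the ratios were 0.37, -0.25 and 0.95, in that order. dnaja2 went the other way, with log2 ratios of -2.13 and -0.65 and 53 of its 76 cluster 0 UMIs in 1 cell. Outside the lists, alas1, for the first enzyme of heme synthesis, had 25 UMIs in 19 cells against 4 in 4 cells.

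Of the 20 genes with the highest ratios, 11 owed over 50% of their cluster 2 UMIs to 1 cell. Without the richest cells, snrpd1, for a core protein of the spliceosome, went from 3.26 to 1.42 and hnrnpa0b, for an RNA-binding protein, from 3.18 to 1.57. blcap went from 3.08 to 1.07 and tmem256 from 3.23 to 0.92, while NUPR1L went from 2.55 to -0.43 and lsm4 from 2.19 to -0.09. The last pair thus had no higher level in cluster 2 outside of 1 cell.

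Between clusters 2 and 0 at day 0, with all of their cells, fewer measured genes were lower in cluster 2 than higher. Fewer of the lower genes held without their richest cell. The UMI limit was on summed UMIs, 282600 in cluster 2 and 195062 in cluster 0. Genes high in cluster 2 thus passed it more easily, and the 2 counts are not like for like. In the cells with at most 5% cardiomyocyte UMIs the counts given above were close. vwf, which encodes von Willebrand factor, the adhesive glycoprotein stored by endothelial cells, had 70 UMIs in cluster 2 (248 CPM) and 250 in cluster 0 (1282 CPM), with log2 ratios of -2.33 and -2.17. Its level in cluster 0 was held by few cells, since 107 of the 250 UMIs lay in 1 cell, and vwf was seen in 29 of 86 cluster 2 cells and 17 of 72 cluster 0 cells. The lower vwf level of cluster 2 was thus not a lower share of cells. cybrd1, for a ferric reductase, had 4 UMIs in 4 cells against 19 in 16 cells, with log2 ratios of -2.15 and -2.16. eif4ebp3, for a repressor of cap-dependent translation in the 4E-BP family, had 79 UMIs against 213, of which 86 lay in 1 cell, with log2 ratios of -1.93 and -1.37.

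A pair of glutathione S-transferase genes was lower, gstt1b with 18 UMIs in 13 cells against 41 in 23 cells and gstm with 31 in 22 cells against 59 in 33 cells. gchfr, which regulates tetrahydrobiopterin synthesis, had 24 UMIs against 48, and the linker histone gene h1fx 28 against 60. rpl22l1, a paralog of a ribosomal protein gene, had 61 UMIs in 37 cells against 252 in 43 cells, with log2 ratios of -2.53 and -1.65. The hematopoietic and endothelial regulator lmo2 had 18 UMIs against 32, a fold of 0.388 (0.205 to 0.713). The keratin genes krt8 and krt94 of the epicardial list stood at 1338 and 1334 CPM in cluster 2 and 2143 and 2194 in cluster 0. The epicardial list was lower in 7 of 11 measured members, while 57.4% of all measured genes were higher. Its median log2 ratio was -0.54, or -0.19 without the richest cells. Of the 15 genes with the lowest ratios, 10 had over 50% of their cluster 0 UMIs in 1 cell. For cox8a (-2.93 to -0.15) and C8H11orf31 (-2.96 to -0.35) the difference was small without the richest cells. For gltscr2 (-2.84 to -1.08) a part of it stayed.

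Large gene classes had small medians of either sign, beside 0.11 for all measured genes. The median log2 ratio of the 78 measured cytosolic ribosomal protein genes was -0.04. Of them 29 were higher in cluster 2 and 49 lower, while 57.4% of all measured genes were higher. Their summed level was 0.948-fold (0.938 to 0.957) that of cluster 0. Of 75 nuclear genes of oxidative phosphorylation 47 were higher, with a median of 0.16. Proteasome genes had a median of 0.01 over 16 members and immediate early and stress genes one of -0.12 over 26, of which 14 were lower. For amino acid transport and mTORC1 genes, the topic of the study, 8 of 13 measured members were higher, with a median of 0.04. Globin genes stood at 145 CPM in cluster 2 and 14001 in cluster 0 as a list, a difference carried by the 1 globin-rich cell.

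**Figure D5:**
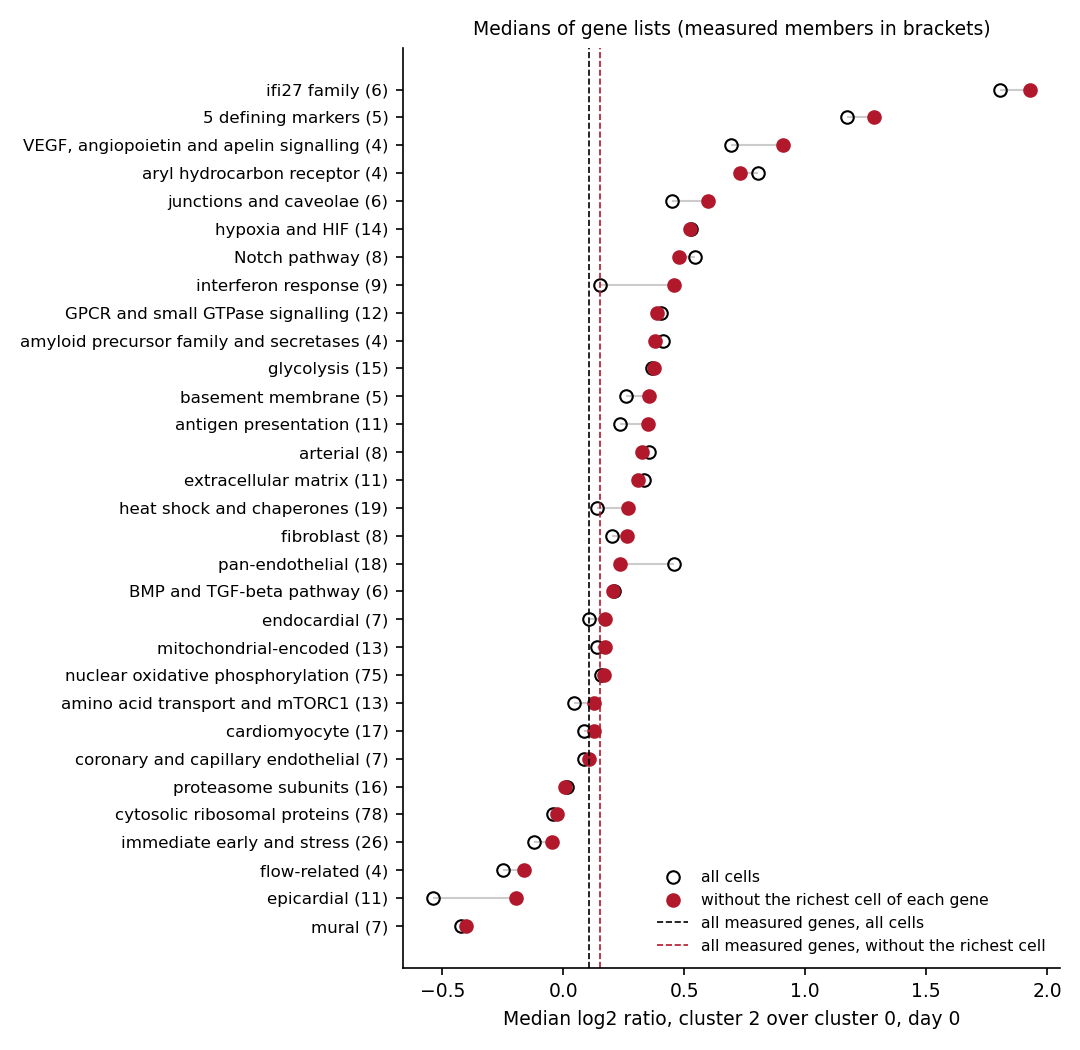
Median log2 ratio of cluster 2 over cluster 0 at day 0 (x) for each gene list with at least 4 measured members (y, number measured in brackets, globin list left out), from all cells (open) and without the richest cell of each gene (filled). Dashed lines give the medians over all measured genes, 0.11 and 0.15. The ifi27 family, picked after its values were seen, stands at 1.81 and 1.93.

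Against the other 186 cells of day 0, 313 of 2287 measured genes (13.7%) were at least 2-fold higher in cluster 2 and 361 (15.8%) at least 2-fold lower. The 656 other cells of all days gave 402 of 4866 (8.26%) and 662 (13.6%). Within day 0 the 20 highest ratios were taken among genes seen in at least 20% of cluster 2 cells. They included zgc:123068, zgc:152791 and si:dkey-188i13.7 of the ifi27 family. Of the markers, epas1b, flt1 and cyp1b1 were there, and ecscr and appa were not. The markers were taken for this cluster and the family was picked for its high ratios, so nothing is read from their rank. NUPR1L and blcap were also there, with log2 ratios of -0.47 and -0.11 without their richest cells. marcksl1a, for a substrate of protein kinase C, was another of the 20. It had 166 UMIs in 49 of 86 cells against 48 UMIs in 36 of 186, with log2 ratios of 2.68 and 2.06. vhl had 39 UMIs in 24 cells against 14 in 11 cells, a fold of 5.67 (3.01 to 11.3), and akap12b 112 in 52 cells against 48 in 37, a fold of 4.75 (3.36 to 6.80). Those 186 cells hold the 72 of cluster 0 and 88 mural-like cells, so the comparison shares cells with the one against cluster 0.

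The 12 cells of cluster 2 after injury were too few for a profile of their own. The 3 day 3 cells held 9308 UMIs and showed 1, 0 and 1 of the 5 marker genes. The 9 day 7 cells held 48229 UMIs, with a median of 4865 per cell, and showed 0 to 3 of the markers, with at least 3 in 3 cells. flt1 had 0 UMIs at day 3 and 1 at day 7, where its level of 20.7 CPM (0.525 to 116) lay below the day 0 level of 163 CPM. epas1b had 0 UMIs at day 3 and 8 at day 7 (166 CPM, 71.6 to 327), close to the 165 CPM of cluster 0 at day 7. cyp1b1 at day 7 had 6 UMIs (124 CPM, 45.7 to 271), against 29.0 CPM in cluster 0. Its fold at that day rests on those 6 UMIs in 3 cells.

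appa at day 7 was set by 1 cell with 2590 UMIs in all, which held 170 of its 182 UMIs. zgc:123068 had 93 of 102 UMIs in 1 day 7 cell. The ifi27 family summed to 3214 CPM in the day 7 cells and 774 in cluster 0 at day 7, a fold of 4.15 (3.45 to 4.98). Without the cell richest in the family in each cluster the sums were 1213 and 759 CPM, a fold of 1.60 (1.18 to 2.12). zgc:152791, whose highest single cell held 8 of 30 UMIs, stood at 622 CPM against 278. By contrast the family summed to 215 CPM in the 3 day 3 cells, from 2 UMIs. Mitochondrially encoded genes took a median of 2.97% of UMIs in the day 3 cells and 0.772% in the day 7 cells, against 2.13% at day 0, and in cluster 0 1.12% and 0.592%, against 2.00%. Type I collagen genes were higher in the day 7 cells than in cluster 0 at that day, with col1a1a at 1140 against 419 CPM, in 7 of 9 cells, and col1a2 at 560 against 180 CPM, in 8 of 9. Both genes had been near equal in clusters 2 and 0 at day 0, with folds of 1.28 (0.785 to 2.12) and 0.863 (0.488 to 1.54). Whether the day 7 cells are the same kind of cell as those of day 0 was not tested.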

How the data were processed

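The authors deposited an expression table of natural log values, ln of 1 plus UMIs per 10000, and a cell table with counts of UMIs and genes, per the file headers, and cluster numbers at 2 resolutions. Cell Ranger and the GRCz10 build come from the submitters' processing notes, and the normalization tool is not given in the sources used here. Reversing the log recovered whole UMI counts for all 497895 values above 0 within 0.001. All 754 deposited cells were used, with 857410, 493660 and 1355246 UMIs at day 0, 3 and 7. The labels state 141 cells recovered at day 3, and 114 are in the table. No doublet caller was run and doublet removal is not stated. The deposited mitochondrial percent was 0 in every cell and was recomputed from 13 genes. UMIs were summed per cluster and library (Python 3.11.15, numpy 2.4.6, scipy 1.17.1, pandas 2.3.3). Genes with at least 20 UMIs in both clusters together counted as measured, and ratios used a pseudocount of 10 CPM. Genes named come from the 5 markers and the 20 highest and 15 lowest ratios. The ratios were ranked among genes seen in at least 20% of the higher cluster's cells. Further sources are the 4 members of each list with most UMIs and list members past 2-fold that meet the same limit. Not all genes of these sets are named in the text. Other genes were named after their values were seen. The last kind are the ifi27 family, kdrl, khdrbs1a, epo, epas1a, adora2aa, akap12b, aldh1a2, her6, fabp11a, col1a1a and col1a2 at day 7, marcksl1a, the genes of the ranking without the richest cell and the absent markers. Members and lists were chosen with earlier results of these data known. RefSeq names (GRCz12tu) matched 192 of 200 named symbols. 1 result is not reported here. The summing and folds were tested on simulated data whose UMIs were drawn independently. Those data lacked the high counts of 1 gene in 1 cell seen here, so the test does not cover intervals of such genes. Alternatives covered the averaging, pseudocount, filter, totals, thinning and left-out cells.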

Additional observations from a re-analysis of the deposited data

How the results depend on the processing

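With 1 library per day no replicate could be left out, and the depth of 2005 to 6779 UMIs per cluster 2 cell at day 0 limits what single cells show. No paired analysis was possible because each group is 1 library and no result comes from a test. The 196 genes at least 2-fold higher became 95 with a pseudocount of 50 CPM, 1156 with a minimum of 1 UMI, 90 with one of 50 UMIs and 114 without cells over 5% cardiomyocyte UMIs. The 111 lower genes became 631 with a minimum of 1 UMI and 44 without each gene's richest cell. The UMI minimum and the cells left out for cardiomyocyte UMIs changed which genes were measured, so those counts are not out of 1487. List medians under settings that changed the minimum, the cells or their depth likewise rest on the members measured there. The day 0 share of cluster 2 was 51.8% within clusters 0, 2, 3 and 6, and the coarser resolution gave 61.0%, 69.3% and 61.1% at day 0, 3 and 7. Mitochondrial percent as a share of summed UMIs was 2.67 in cluster 2 and 2.47 in cluster 0. List medians that moved were the 5 markers with a pseudocount of 50 CPM (0.87), basement membrane genes without the richest cells (0.35), ribosomal protein genes with totals that left out mitochondrial, cardiomyocyte, globin and ribosomal genes (-0.0937) and, without cells over 5% cardiomyocyte UMIs, glycolysis (-0.14), cardiomyocyte (0.39), proteasome (-0.31) and oxidative phosphorylation genes (0.35). The globin list gave -7.38 with a pseudocount of 1 CPM, -7.65 without cells over 5% cardiomyocyte UMIs, 0.24 without the richest cells and 0.0201 without the globin-rich cell, a setting added after seeing the data. Of the pairs of a named gene and a setting, 1503 stayed within the gene's interval, 121 moved out of it and in 14 a ratio past 2-fold changed sign. Without the richest cells these were NUPR1L (-0.43), ba1 (0.45), hmgb2b (0.21), lfng (0.23), lsm4 (-0.0874), si:ch211-71m22.1 (0.44) and si:xx-by187g17.1 (0.79). Without the 10% deepest cells they were NUPR1L (-0.50) and cd81a (0.42), and without cells over 5% cardiomyocyte UMIs glulb (-0.16) and hmgb2b (0.0209). Without the globin-rich cell they were ba1 (0.61), ba1l (0.0128) and si:xx-by187g17.1 (1.04). Leaving out the richest or the globin-rich cell removes the counts in question by construction, and for the other settings the cause was not tested. Sums without epas1b, vwf or the richest cells at day 7 were also added after seeing the data. The ifi27 family median stayed between 1.24 and 2.14 and the hypoxia and HIF median between 0.36 and 1.53 over 11 settings.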

Other observations

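High counts of 1 gene in 1 cell were common in the day 0 library. In cluster 2, 55 genes had over 50 UMIs in 1 cell that made up over 50% of the cluster's UMIs of that gene, spread over 37 cells, with at most 3 such genes per cell. They summed to 2.02% of the cluster's UMIs. Cluster 0 had 51 such genes in 40 cells and the mural-like cluster 1 had 68 in 48 cells, at 3.96% and 2.50% of their UMIs. The highest peak of cluster 2 was 233 UMIs, of NUPR1L.

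khdrbs1a, which encodes an RNA-binding protein, had 304 UMIs in 3 of the 9 day 7 cells of cluster 2, of which 237 lay in 1 cell. Without it the level was 1593 CPM, against 89.8 CPM in cluster 0 at day 7. That level still rests only on the rest of those 3 cells. In the day 0 cells of cluster 2 khdrbs1a stood at 326 CPM, in 47 of 86 cells, with at most 6 UMIs in any cell.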
